A study of Mus musculus with 8 samples.

Results

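Pirb and Pira2 belong to the mouse paired immunoglobulin-like receptors (PIR), a family of immunoglobulin-superfamily receptors whose genes lie side by side near the start of chromosome 7. The count table holds 49585 rows named by Ensembl gene, and the 2 rows described here are those whose identifiers map to Pirb (ENSMUSG00000058818.13) and Pira2 (ENSMUSG00000089942.9). The pair was chosen by its higher CPM in Gata2 KO than in Gata2 f/f libraries, so that difference is described below without a test. Poly(A) RNA came from cultured mouse leukemia cells, derived from bone marrow and labelled MA9, a common short form of the MLL-AF9 fusion oncogene. In 4 libraries the cells were Gata2 f/f, with both Gata2 alleles flanked by recombination sites, and in 4 they were Gata2 KO, in which Gata2 is labelled as deleted (Gata2 -/-). All 8 cultures carried MA9 and were grown with IL-3, IL-6 at 10 ng/mL, SCF at 20 ng/mL and 15% serum. The labels do not give a Cre driver, an age, or whether replicates came from separate animals, so each p-value rests on library-to-library spread, which may be technical.

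PIR-B, the product of Pirb, is an inhibitory receptor of B cells and myeloid cells and the mouse counterpart of the human LILRB receptors. Its cytoplasmic tail carries ITIMs, tyrosine motifs that, once phosphorylated by Src-family kinases such as Lyn, recruit the phosphatases SHP-1 and SHP-2. The PIR-A proteins, of which Pira2 encodes one, have a similar extracellular part but a short tail, and signal through the ITAM adaptor FcRγ, the product of Fcer1g. Both kinds bind MHC class I molecules, and PIR-B also binds angiopoietin-like proteins and Nogo. PIR-B has been studied as a receptor that supports MLL-AF9 leukemia cells.

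The row names needed a check before any value could be read. Elsewhere in the table many names are unreliable: the row named B2m held 0 counts and Mpo held 9 over all libraries. The Gata2 row held 0, 0, 1 and 1 counts in Gata2 f/f replicates 1 to 4, and 2, 0, 0 and 0 in Gata2 KO. A count of 0 allows up to 3 counts, or 0.481 to 1.86 CPM, and the deletion cannot be checked from this row. Library totals ran from 1610369 to 6237748 counts. CPM, the count scaled to the library total, is used below.

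In GRCm38 coordinates Pirb spans chromosome 7 from 3711409 to 3720391 and Pira2 from 3836812 to 3845051, both on the minus strand, with 116 kb between them. The promoters are shown because the family's rows were higher together in Gata2 KO, as given below. These are the bases upstream of every annotated 5′ end, from RefSeq (GRCm38.p6), at chr7:3720392-3720632 for Pirb and chr7:3845105-3845301 for Pira2. They are written 5′ to 3′ on the gene's strand. Capitals mark GAGGAA, a core letter string bound by ETS factors such as PU.1, or its reverse complement TTCCTC.
Pirb: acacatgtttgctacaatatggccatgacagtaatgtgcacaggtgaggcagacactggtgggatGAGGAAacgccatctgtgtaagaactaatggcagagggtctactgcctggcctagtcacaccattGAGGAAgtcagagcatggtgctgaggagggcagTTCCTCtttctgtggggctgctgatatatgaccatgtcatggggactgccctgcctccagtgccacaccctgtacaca
Pira2: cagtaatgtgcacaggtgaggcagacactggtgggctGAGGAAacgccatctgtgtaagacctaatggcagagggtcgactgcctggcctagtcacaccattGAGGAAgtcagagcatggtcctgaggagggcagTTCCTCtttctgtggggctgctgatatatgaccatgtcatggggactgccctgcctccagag

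The 2 promoters are near copies of each other. When the first 250 bases of each RefSeq promoter entry were aligned, 217 of 222 paired bases were identical (97.7%). Unpaired bases were left out. Of the 250, only 241 for Pirb and 197 for Pira2 lie upstream of every annotated 5′ end. The same comparison with Pirb gave 98% for Pira1, 99.5% for Gm15448 (187 paired bases), 96% for Gm14548 and 96.4% for Lilra6, the other family members with an entry. Each of these 6 promoters held GAGGAA, on either strand, at least 3 times in 250 bases. Of 32851 RefSeq promoters of that length, 23.25% held it at least once and 0.429% at least 3 times. The GATA factor strings AGATAA and AGATAG as well as TGATAA and TGATAG, searched on both strands, were in none of the 6 windows and in 26.5% of all promoters. The string TGTGGT, a core of RUNX sites, was found in Gm15448 alone among the 6 and in 14% of all promoters. As near copies, the 6 promoters are not 6 separate observations, so the shares over all promoters are no measure of chance here. Matches are descriptions of letters, not of binding, and whether they bear on the higher rows was not tested.

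The Pirb row was about 5-fold more abundant in Gata2 KO, and every Gata2 KO library lay above every Gata2 f/f library. Gata2 f/f replicates 1 to 4 held 179, 129, 145 and 519 counts, or 86.5, 80.1, 67.9 and 94.7 CPM. Gata2 KO replicates 1 to 4 held 655, 913, 1852 and 3329 counts, or 337, 423, 448 and 534 CPM. The lowest Gata2 KO library was thus well above the highest Gata2 f/f library. Mean CPM of Pirb was 82.3 ± 11.3 (Gata2 f/f) and 436 ± 80.9 (Gata2 KO; SD, n = 4 each), a ratio of means of 5.29. In pooled counts Pirb ranked 2180 among all rows in Gata2 f/f and 443 in Gata2 KO.

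Pira2 showed the same order at far lower counts, with no overlap between genotypes. Its counts were 15, 12, 20 and 42 in Gata2 f/f replicates 1 to 4, and 59, 71, 141 and 245 in Gata2 KO. In CPM these were 7.25, 7.45, 9.37 and 7.66 in Gata2 f/f, a narrow range, and 30.4, 32.9, 34.1 and 39.3 in Gata2 KO. The means were 7.93 ± 0.973 and 34.2 ± 3.75 CPM (SD, n = 4 each), a ratio of 4.31.

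Fitted across the table with edgeR and TMM scaling, the log2 fold change, Gata2 KO minus Gata2 f/f, was 2.41 ± 0.14 (SE) for Pirb and 2.14 ± 0.17 for Pira2. The median over all 6580 rows tested was -0.01. Pirb ranked 27 and Pira2 ranked 56 by signed fold change. The replicate numbers run from 1 to 4 in both genotypes, and within each number both rows were higher in Gata2 KO. For Pirb the log2 differences within numbers were 1.96, 2.40, 2.72 and 2.49, and for Pira2 they were 2.07, 2.14, 1.87 and 2.36. The smallest Pirb difference and the smallest Pira2 difference fell in different numbers, 1 and 3.

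**Figure D1:**
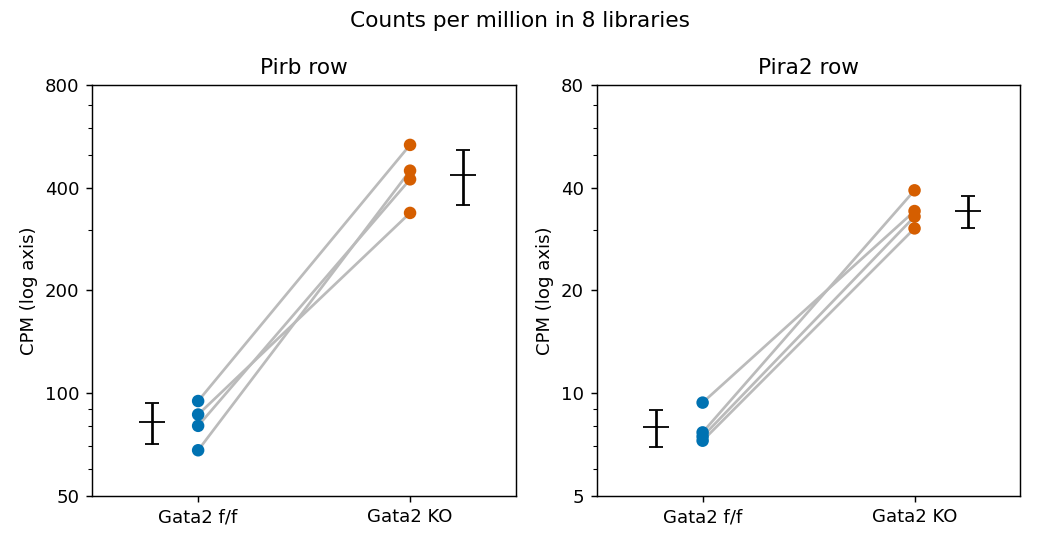
CPM of the Pirb and Pira2 rows (vertical log axes with different ranges) in 4 Gata2 f/f libraries (blue) and 4 Gata2 KO libraries (orange), with grey lines joining libraries of the same replicate number and black bars giving mean ± SD. Pirb runs from 67.9 to 94.7 CPM in Gata2 f/f and from 337 to 534 CPM in Gata2 KO, and Pira2 from 7.25 to 9.37 and from 30.4 to 39.3.

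The balance between the inhibitory and the activating receptor row moved little by comparison. Dividing Pirb by Pira2 counts gave 11.9, 10.8, 7.25 and 12.4 in Gata2 f/f replicates 1 to 4, and 11.1, 12.9, 13.1 and 13.6 in Gata2 KO. The groups overlapped, and Gata2 f/f replicate 3, with 20 Pira2 counts, lay below the rest. On the log2 scale the mean was 3.37 ± 0.35 in Gata2 f/f and 3.66 ± 0.13 in Gata2 KO (SD, n = 4 each), a difference of 0.29. Within the replicate numbers the differences were -0.10, 0.26, 0.86 and 0.14, so 3 were positive and 1 negative. Without Gata2 f/f replicate 3 the difference between genotype means was 0.12. A ratio of raw counts of 2 rows is not a ratio of transcript numbers.

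Pira2 made up 7.73%, 8.51%, 12.1% and 7.49% of the counts of both rows in Gata2 f/f replicates 1 to 4, and 8.26%, 7.22%, 7.07% and 6.86% in Gata2 KO. The exact 95% binomial intervals, which cover counting error only, ran from 4.39% to 12.4% in Gata2 f/f replicate 1 and from 6.05% to 7.73% in the deepest library, Gata2 KO replicate 4. In Gata2 f/f replicate 3 the interval was 7.56% to 18.1%. Differences in the share between single libraries were not tested.

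**Figure D2:**
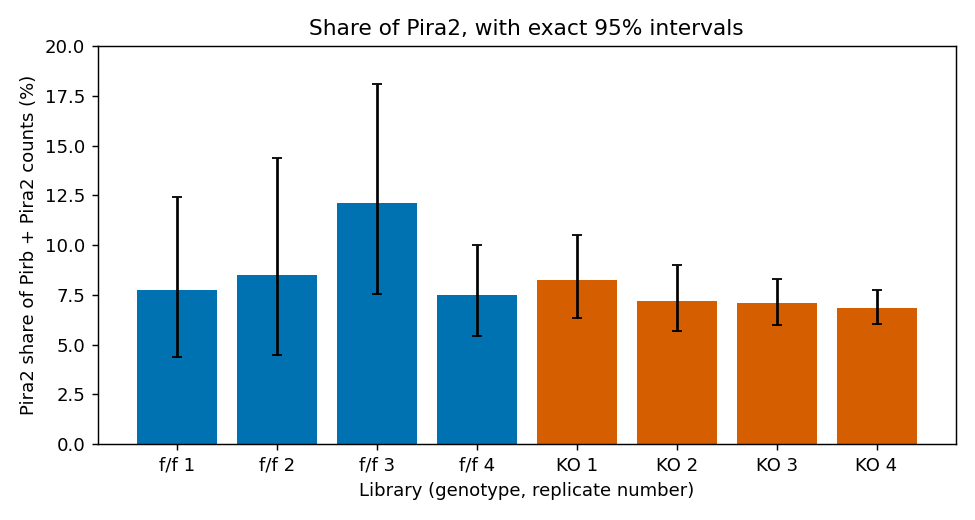
Share of Pira2 in the summed Pirb and Pira2 counts (vertical axis, percent, from 0) for each of 8 libraries, blue for Gata2 f/f and orange for Gata2 KO, with exact 95% binomial intervals as error bars. Shares lie between 6.86% and 12.1%, and the widest intervals belong to Gata2 f/f libraries with 12 to 20 Pira2 counts.

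PIR genes are near copies, so reads can be shared or lost between them. Of the 65-base windows (the read length) in annotated Pirb transcripts, 29.2% also occur in transcripts of another gene, and 14.4% occur in Pira2. For Pira2 the share was 90.3%, with 78.5% of its windows found in Gm15922, whose row lies where RefSeq places Pira1. Only 336 Pira2 windows were its own, against 3335 for Pirb. The Pira2 row can therefore hold reads of its neighbours, and how the authors assigned shared reads is not given in the sources used here. Per kilobase of annotated exon, Pirb stood at 97.4 CPM and Pira2 at 9.87 CPM in Gata2 KO, and at 18.4 and 2.29 CPM in Gata2 f/f. Those per-length levels take no account of shared windows. Windows were counted singly although reads were paired, so a read in a shared window may still be placed by its mate. Set against its own windows alone, Pirb had 6749 counts on 3335 windows in the pooled Gata2 KO libraries, and Pira2 had 516 on 336. By that measure the 2 rows lie far closer than per kilobase. Their relative transcript level thus depends on the unknown rule for shared reads.

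The other rows of the family are therefore given beside the members. From Pirb to Lilra6 the table lists 9 rows over 204 kb, of which 6 had enough counts for the fit. Gm15448, a protein-coding PIR-like gene, stood at 8.21, 6.21, 4.22 and 7.66 CPM in Gata2 f/f replicates 1 to 4, and at 25.7, 29.6, 40.4 and 47.8 CPM in Gata2 KO. Lilra6, listed by RefSeq as Pira3 too, stood at 10.6, 8.07, 7.496 and 11.7 CPM in Gata2 f/f, and at 45.3, 44.5, 37.8 and 67.2 CPM in Gata2 KO. In both rows every Gata2 KO library lay above every Gata2 f/f library. Gm15922 went from 3.18 ± 1.06 to 14.2 ± 4.79 CPM and Gm14548 from 3.02 ± 0.412 to 10.1 ± 0.85 CPM (SD, n = 4 each). Some Gata2 f/f libraries of these last rows held only 3 to 8 counts.

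Across the 6 rows the log2 fold change ran from 1.72 ± 0.24 (SE) for Gm14548 to 2.45 ± 0.25 for Gm15448. It was 2.35 ± 0.22 for Lilra6 and 2.11 ± 0.31 for Gm15922. All 6 were without overlap between genotypes, as was Gm15925, a pseudogene with 51 counts. Over all rows tested 19.3% were without overlap, and 10.8% were so with Gata2 KO higher. As these rows belong to the contrast and the family by which the members were chosen, nothing is read from that count. Gm15930 (6 counts) and Gm10693 (18 counts) were too low to read.

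Pirb made up from 70.7% of the family's counts, in Gata2 f/f replicate 3, to 76.2%, in Gata2 KO replicate 3. Its mean share was 72.5 ± 1.57% in Gata2 f/f and 74.7 ± 1.41% in Gata2 KO (SD, n = 4 each), and the groups overlapped. Within the replicate numbers the share was higher in Gata2 KO each time, by 0.633, 0.888, 5.51 and 1.66 percentage points for numbers 1 to 4. Summed over all 9 rows, the family stood at 113 ± 15 CPM (Gata2 f/f) and 583 ± 107 CPM (Gata2 KO). On the log2 scale the sum of Pirb and Pira2 differed by 2.39 and the sum of the 9 rows by 2.37. A sum over the family does not depend on how reads were divided within it, but it would miss reads dropped because they were shared. Genes outside the family also hold some of the windows, from 3.39% for Gm10693 to 15.8% for Gm14548. In bulk RNA, more cells with a transcript and more transcript per cell cannot be told apart.

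The genes beside the family gave a mixed picture as a check of the names. Of 12 listed genes used by every cell at this end of chromosome 7, 9 reached 20 CPM in the pooled libraries. They included the splicing factor genes Prpf31 (432 CPM) and U2af2 (598 CPM), the phosphatase subunit gene Ppp6r1 (446 CPM) and Tsen34 (58.2 CPM), a tRNA splicing endonuclease subunit gene that ends before Rps9. The other 3 did not. Rps9, a ribosomal protein gene next to Pirb, held only 122 counts in all (4.74 CPM), Rpl28 held 10 and Ndufa3 held 3. Rps9 had 13, 11, 14 and 17 counts in Gata2 f/f replicates 1 to 4, and 9, 4, 23 and 31 in Gata2 KO.

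These 3 low genes span 2.19 to 2.96 kb, while the 9 present ones span 8.16 to 27.5 kb, a difference noticed after the values were seen. Pirb spans 8.98 kb and Pira2 8.24 kb. No row lies in the 4.51 kb between Rps9 and Pirb or in the 11.2 kb after Pirb. If exons are moved along the chromosome by 1 to 5 kb in either direction, 22.6% to 34.7% of the exon bases of Pirb still fall in its own row. They touch another row only at 5 kb, where 10.9% fall in Rps9. Of Pira2, 12% to 31.8% stay in its own row and 0% reach another. Moved by 3 kb or more, Rps9 keeps 0% of its exon bases in its own row. At 5 kb in the direction of Pirb, 19.4% of them fall in the Pirb row. This is geometry of the annotation only, and whether counts are displaced here was not tested. The names Pirb and Pira2 are used with that limit.

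The tested rows beside the family had smaller fold changes than the 6 family rows. The family rows belong to the contrast by which the members were chosen, so nothing is read from that difference. Among rows of chromosome 7 that end before 4.6 Mb, 18 outside the family were tested, and 0 passed an adjusted p of 0.05 in edgeR (Benjamini-Hochberg over all rows tested). Of all rows tested, 12.5% passed. At an unadjusted p under 0.05 there were 2, and DESeq2 called 0. Their log2 fold changes ran from -0.34 to 0.36, with a median of -0.06, and the lowest adjusted p was 0.156. The genotypes overlapped in all 18, where 19.3% of all rows tested were without overlap. With the replicate number as a block, 3 of the 18 passed, where 35.5% of all rows did: Prpf31 and Gm15927, which overlaps it, lower, and Leng8 higher in Gata2 KO.

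Rps9 had a log2 fold change of -0.25 (adjusted p = 0.761, edgeR) and Tsen34 of 0.20 (0.381). Lair1, the collagen receptor gene on the other side of the family and itself an ITIM receptor, averaged 58 ± 8.81 CPM (Gata2 f/f) and 62.2 ± 5.68 CPM (Gata2 KO; SD, n = 4 each). The log2 difference was 0.12 ± 0.14 (SE), and the adjusted p in edgeR was 0.657. Ube2s, further along, was lower in Gata2 KO and passed with the block (0.00078), without Gata2 f/f replicate 4 (0.0322) and without both libraries numbered 4 (0.0182). In that last setting Gm15927 passed too (0.0236). With no filter on low counts Gm15931, a pseudogene, passed (0.0117), with 0 counts in every Gata2 f/f library and 2, 1, 5 and 10 in Gata2 KO replicates 1 to 4.

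**Figure D3:**
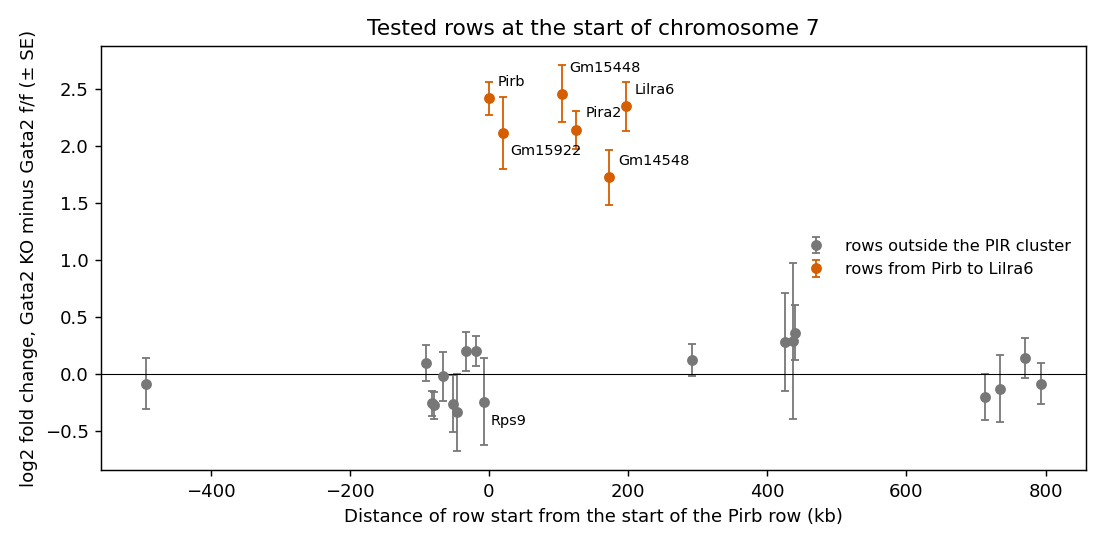
Log2 fold change, Gata2 KO minus Gata2 f/f, with SE bars (vertical axis), of every tested row of chromosome 7 that ends before 4.6 Mb, by the distance of its start from the start of Pirb in kb (horizontal axis). The 6 family rows (orange) lie between 1.72 and 2.45, and the 18 other rows (grey) between -0.34 and 0.36.

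Signalling partners were read from 5 lists of row names, of which 23 of 61 members were tested. Outside chromosome 7 the names have no local check here and stand for rows only. In edgeR 4 were higher and 1 lower in Gata2 KO, against 8.97% higher and 3.53% lower over all rows tested. The median log2 fold change of the 23 was 0.19, against -0.01 for all rows. With the replicate block 11 were higher and 2 lower, where 18.8% and 16.7% of all rows were. Without Gata2 KO replicate 3 the 5 calls became 3, and without Gata2 f/f replicate 4 they became 9.

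Among 7 tested rows for activating partners and kinases, 2 rose and 0 fell, and with the block 3 rose and 1 fell. Lyn, the Src-family kinase gene, stood at 666, 613, 648 and 697 CPM in Gata2 f/f replicates 1 to 4, and at 1310, 1383, 1232 and 1368 CPM in Gata2 KO. The 2 sets of libraries were far apart, by 1.03 ± 0.10 on the log2 scale (SE; edgeR, adjusted p = 8.31e-05). Pik3cd, a phosphoinositide 3-kinase subunit gene, rose by 0.61 ± 0.17 (adjusted p = 0.039, edgeR). It lost that call when any 1 library other than Gata2 KO replicate 1 was left out (0.0534 to 0.119). Pik3cd also lost it with library totals in place of TMM (0.0605), with no filter (0.129), in DESeq2 (0.0531) and without both libraries numbered 4 (0.0523). The adaptor gene Fcer1g, the partner of PIR-A, was at 27.3 ± 7.65 and 37.5 ± 8.64 CPM in Gata2 f/f and Gata2 KO (SD, n = 4 each), and did not pass (adjusted p = 0.164, edgeR). It passed with the block (0.00684). Vav1, a guanine nucleotide exchange factor gene, had 371 to 448 CPM in Gata2 f/f and 282 to 332 CPM in Gata2 KO, without overlap. Its log2 difference of -0.35 ± 0.12 (SE) did not pass in edgeR (adjusted p = 0.0815), and with the block it did (0.000607). Tyrobp held 0 counts and Syk held 4 over all libraries, so those rows could not be read.

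The inhibitory side gave 0 calls among 6 tested rows in edgeR, and 2 with the block. Ptpn6, the gene of SHP-1, was at 29.2 ± 13.2 and 36.9 ± 10.9 CPM (SD, n = 4 each), a log2 difference of 0.33 ± 0.26 (SE; edgeR, adjusted p = 0.496). Inpp5d, the gene of the lipid phosphatase SHIP1 (0.40, adjusted p = 0.188), and the adaptor gene Dok3 (0.50, 0.132) passed only with the block (0.000817 and 0.00765). Of 10 rows named for ligands, only H2-K1, an MHC class I heavy chain gene, had enough counts. H2-K1 stood at 84.5, 80.7, 70.3 and 77.9 CPM in Gata2 f/f and at 54.6, 51, 46.3 and 59.3 CPM in Gata2 KO, lower in every Gata2 KO library. It fell by 0.56 ± 0.13 on the log2 scale (adjusted p = 0.0154, edgeR). H2-K1 lost its call without Gata2 KO replicate 3 (0.0556) and with no filter on low counts (0.0537).

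In the list of other paired and ITIM receptors 2 of 6 tested rows rose and 0 fell, and with the block 5 rose. Cd300a, an inhibitory receptor of myeloid cells, stood at 18.4, 13, 7.96 and 10.8 CPM in Gata2 f/f and at 43.8, 52.3, 66.1 and 46 CPM in Gata2 KO. Its log2 fold change was 2.10 ± 0.26 (SE, adjusted p = 0.000379, edgeR). Pilra, another inhibitory paired receptor, went from 12.1 ± 0.859 to 46.4 ± 8.12 CPM (SD, n = 4 each; log2 fold change 1.95, adjusted p = 7.04e-05, edgeR). Its activating partner Pilrb1 had 0.84 ± 0.32 (adjusted p = 0.118, edgeR), and 0.00347 with the block. Cd300lf (0.59) and Pecam1 (0.19) also passed only with the block (0.0283 and 0.0217). Of 3 tested transcription factor rows 0 passed in edgeR. Runx3 (0.34, adjusted p = 0.172) passed with the block (0.0207). Spi1, the gene of PU.1, had -0.19 ± 0.16 (adjusted p = 0.539, edgeR).

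**Figure D4:**
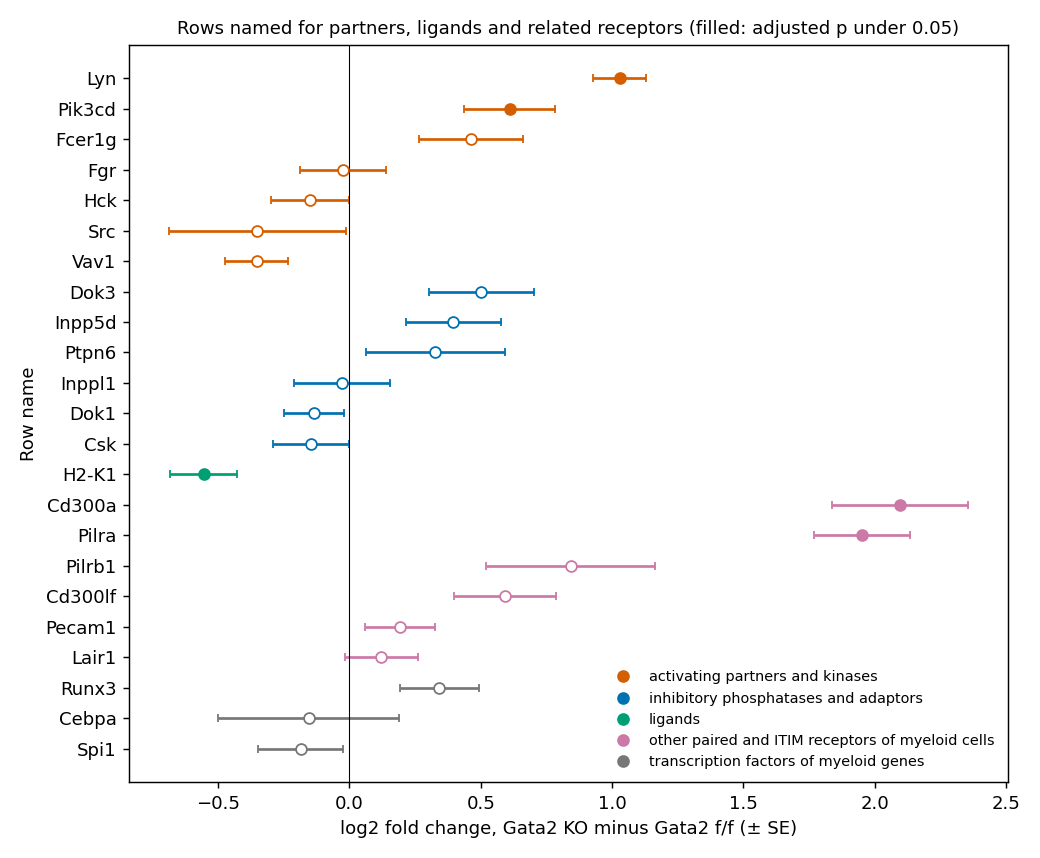
Log2 fold change, Gata2 KO minus Gata2 f/f, with SE bars (horizontal axis) for the 23 tested rows of the 5 lists, coloured by list and filled where the adjusted p is under 0.05 in edgeR without the replicate block. Cd300a (2.10), Pilra (1.95), Lyn (1.03) and Pik3cd (0.61) are filled on the right and H2-K1 (-0.56) on the left.

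Marker rows of blood cell types could not check the label of the cells, because most were nearly empty. Of 12 neutrophil marker rows 9 lay under 1 CPM, Mpo among them, as did 8 of 12 for monocytes and macrophages. The leukemia gene Hoxa9 was present (28.7 to 52.2 CPM), while Meis1 held 6 counts and Kit held 3 over all libraries. The neutrophil list summed to between 280 and 426 CPM in Gata2 f/f and between 1118 and 2613 CPM in Gata2 KO, most of it the row named Mmp8. The monocyte and macrophage list summed to between 44.3 and 49.3 CPM and between 57.1 and 118 CPM. For B cells, which also carry PIR-B, the sums were 40.3 to 45.4 and 38 to 45.8 CPM, with 6 of 8 rows under 1 CPM. The erythroid and megakaryocyte list, with 7 of 8 rows under 1 CPM, summed to between 3.86 and 8.39 CPM in Gata2 f/f and between 7.72 and 49.2 CPM in Gata2 KO. Its single tested row, Vwf, rose by 2.52 ± 0.46 (SE, log2; adjusted p = 0.00391, edgeR). Sums of the neutrophil and monocyte lists were thus higher in every Gata2 KO library, while the erythroid sums overlapped. Single rows weighed heavily: Mmp8 rose by 2.62 and Csf3r by 0.53, while Ltf had -0.04. Of the tested monocyte rows Klf4 had 2.76 and Gpnmb 0.46. Sums of the mast cell and basophil list, mostly the row named Ms4a2, ran lower with overlap. They were 1941 to 3005 CPM in Gata2 f/f and 1454 to 2339 CPM in Gata2 KO. Ms4a2 had -0.58 (adjusted p = 0.141, edgeR). The other tested rows of that list were higher: Tpsb2 by 0.96 (adjusted p = 0.00749, edgeR), Cma1 by 0.41 and Hdc by 0.26. Only Tpsb2 passed without the block, and with the block 3 rose and 1 fell. The part of any cell type in the result was not tested.

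The rows most like the members over the 8 libraries were found by the Pearson correlation of log2 CPM. For Pirb they were Eno4, Aph1a, H2-DMb2, C4a and Mir6940 (r = 0.991 to 0.994). Eno4 averaged only 1.48 CPM in Gata2 f/f, within the 0.481 to 1.86 CPM that a count of 0 allows. For Pira2 they were Derl2, R3hdm2, Prom1, Colec12 and Ice2 (0.983 to 0.986). Pirb and Pira2 correlated at 0.981 with each other. The libraries form 2 genotypes, so any row with a large difference between them scores high on this measure. After the genotype means were subtracted, Pirb and Pira2 correlated at -0.11 only. In Gata2 KO both rose from replicate 1 to 4. Gata2 f/f replicate 3 had the lowest Pirb CPM and the highest Pira2 CPM, the latter on 20 counts. The 5 rows named for Pirb had 0.712 to 0.854 with Pirb, but they were picked by their correlation over these same libraries. The 5 rows named for Pira2 had -0.02 to 0.302 with Pira2 on that measure. Library depth and the replicate number are shared by all these values.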

How the data were processed

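For 8 libraries the authors deposited raw counts, whole numbers with 1 row per Ensembl gene. The submitters' processing notes name mm10, kallisto, HTSeq and DESeq2. Which of these made the counts, with which annotation and rule for shared reads, is not given in the sources used here. Per the labels' protocols, reads were paired, 65 bases long, and from a kit that does not mark strand. Columns were matched to samples by their descriptions, and groups came from the titles.

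Names and GRCm38 positions came from GENCODE M21, which held 88.2% of the versioned identifiers. The other rows, such as H2-K1 and Dok3, have no position here. Their names came from a separate list matched by identifier without its version. Counts were fitted with edgeR 4.0.16 (R 4.3.3): TMM scaling, expression filter with a minimum count of 10, quasi-likelihood F-test with genotype alone, Benjamini-Hochberg adjustment and a threshold of 0.05. The fit was tested on simulated data with no effect shared within a replicate number, so that test does not bear on the block. SE is the log2 fold change over the root of F. Alternatives were other scalings, no filter, DESeq2 1.42.0, a replicate block and leaving libraries out. Promoters were aligned with Biopython 1.88, and exact binomial intervals came from SciPy 1.17.1. The members, lists and tests were chosen with earlier results of these data known.

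Rows were named by rule: Gata2, the members, rows named Pira, Lilra or Lilrb, the listed neighbours, rows within 100 kb with 100 counts or more, up to 6 passing members per list, and the 5 most alike rows. Other rows were named after their values were seen.

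The genotypes share replicate numbers 1 to 4. Deviations of log2 CPM from the genotype means correlated between same-numbered libraries at 0.333, 0.213, 0.243 and 0.804. All exceeded 0.1, so the fit with the replicate number as a block is given beside the unblocked one where it changes a call. What libraries of a number share is not in the labels.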

Additional observations from a re-analysis of the deposited data

Results flagged for a closer look

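In some of 44 groups of 4 libraries 1 lay far from the other libraries, which chance alone gives in about 1 group in 20. None of these was a PIR row. They were Prpf31 in Gata2 KO, with a highest library at 442 CPM, Cnot3 in Gata2 f/f at 139 CPM, and Leng8 in both genotypes, with highest libraries at 80.8 CPM (Gata2 f/f) and 91.7 CPM (Gata2 KO). The lowest library stood apart for Mboat7 in Gata2 f/f, at 28.6 CPM, and for Rps9 in Gata2 f/f, at 3.10 CPM. All of these libraries but that of Mboat7 (replicate 2) were numbered 4. Libraries of that number also had the highest correlation between genotypes, 0.804. The cause was not tested.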

How the results depend on the processing

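Pirb kept a log2 fold change between 2.33 and 2.50 and Pira2 between 2.02 and 2.22 over 15 alternatives, and the summed rows between 2.31 and 2.48 over 14. Each moved by less than the spread between replicates. The log2 ratio of Pirb to Pira2 differed by 0.12 to 0.40 over 11 alternatives. Calls over the table numbered 822, and 2339 with the replicate block, which kept all 822. They numbered 1437 without both libraries numbered 4, 1727 with the block as well, a setting chosen after seeing the data, and 548 to 1103 when single libraries were left out. The 5 calls in the partner lists became 13 with the replicate block, 9 without both libraries numbered 4, 12 with both changes, and 3 to 9 with single libraries left out. Calls among the tested neighbours on chromosome 7, the 12 listed genes included, were 0, but 1 with no filter, 4 with the replicate block, 2 without both libraries numbered 4, 3 with both changes, and 0 to 1 with single libraries left out. The cause of these shifts was not tested. In Gata2 f/f libraries Pira2 rests on 12 to 42 counts, which limits the ratio and the share.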
